A study of Homo sapiens with 2 samples.

Results

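The data compared tissue at a moderate level of hypoxia with the least and the most hypoxic tissue of the same sections, to tell genes that change early along the hypoxia gradient from genes that change late. In each of 2 tumors, a hypoxia level H was computed for every Visium spot as the unique molecular identifiers (UMIs) of NDRG1, BNIP3, CA9, SLC2A1, P4HA1, ADM, EGLN3 and ANKRD37 per 10000 UMIs, averaged over the spot and its adjacent spots. Spots with at least 5000 UMIs (4196 of 5382 spots over tissue) were ranked by H within their tumor and split into 10 equal groups, numbered from the lowest H. The moderate zone took groups 6 to 8 and held 1260 spots, 671 in Tumor-897 and 589 in Tumor-899. The low zone took groups 1 to 3 (1260 spots) and the high zone groups 9 and 10 (838 spots). These 8 genes placed the spots, so their levels describe the zones and were not tested.

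Both tumors came from MDA-MB-231, a long-established line of human triple-negative breast cancer, here carrying a hypoxia fate-mapping reporter. They were left untreated, harvested at day 18 after implantation and sectioned frozen at 10 µm. They form 1 group (n = 2), and the labels do not say that they came from separate mice, so p-values measure the spread between these sections. A spot covers a small region with several cells, and the fluorescence images were not used here. Reads from host cells of the mouse can also align to the human genes counted, and they cannot be told apart from tumor reads. Fewer cells of a type and less RNA per cell cannot be told apart in such sums either.

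Cells sense oxygen through prolyl hydroxylases of the EGLN family, which mark the alpha subunits of the hypoxia-inducible factors (HIF) for degradation while oxygen is present. When oxygen falls, HIF pairs with ARNT and binds short DNA elements with the core ACGTG or GCGTG, which raises genes for glucose uptake, glycolysis, matrix crosslinking and vessel growth. In solid tumors these genes mark tissue far from perfused vessels, often around necrosis, and more severe stress adds the unfolded protein response, which lowers protein synthesis.

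3 promoters that hold the motif searched in them are shown. LOX was called higher at both steps, and HSPA1A and HSPA6 at the first step alone. That pattern of calls does not show that their steps differ. Each sequence is 300 bases of RefSeq (GRCh38.p14), from 250 bases before to 50 bases after the gene's start, written 5′ to 3′ on the gene's strand. Capitals mark the HIF core ACGTG or GCGTG on either strand in LOX, and the heat shock element pair GAANNTTC, the letters bound by heat shock factors, in HSPA1A and HSPA6.
LOX (chr5:122078210-122078509, minus strand): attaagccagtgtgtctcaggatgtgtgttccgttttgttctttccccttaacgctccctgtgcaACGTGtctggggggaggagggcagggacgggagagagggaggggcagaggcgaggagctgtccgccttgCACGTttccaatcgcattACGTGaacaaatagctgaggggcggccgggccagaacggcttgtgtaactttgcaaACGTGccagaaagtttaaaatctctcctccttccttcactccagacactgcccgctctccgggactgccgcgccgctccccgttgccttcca
HSPA1A (chr6:31815293-31815592, plus strand): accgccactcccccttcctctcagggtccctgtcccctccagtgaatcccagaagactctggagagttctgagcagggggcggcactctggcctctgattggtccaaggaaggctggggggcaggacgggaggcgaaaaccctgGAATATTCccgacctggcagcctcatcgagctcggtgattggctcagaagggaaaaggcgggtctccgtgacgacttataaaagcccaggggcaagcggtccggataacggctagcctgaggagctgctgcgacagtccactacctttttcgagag
HSPA6 (chr1:161524290-161524589, plus strand): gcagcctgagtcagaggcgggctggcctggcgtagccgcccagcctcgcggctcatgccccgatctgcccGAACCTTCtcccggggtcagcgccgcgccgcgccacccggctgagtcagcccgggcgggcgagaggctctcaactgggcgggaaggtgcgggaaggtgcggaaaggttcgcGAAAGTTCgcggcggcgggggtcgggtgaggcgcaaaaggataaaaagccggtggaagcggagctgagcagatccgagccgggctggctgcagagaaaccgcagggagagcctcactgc
The LOX promoter held 4 HIF cores, at 185, 116, 98 and 42 bases before the start. HSPA1A held 1 heat shock pair at 106 bases before the start, and HSPA6 held 2, at 180 and 69 bases. HSPA6 also held 2 matches to the AP-1 letters TGANTCA, which are not marked. The promoters of CCL26 and SPRY4 were searched as well and are not printed. They held no HIF core, no heat shock pair and no AP-1 letters. A match is a description and not a binding site: a HIF core stood in 62.9% of the 10621 matched promoters of tested genes, and GAANNTTC in 4.75%.

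H placed the moderate zone between its neighbours with little room at the edges. In Tumor-897 moderate spots had an H of 16.9 to 26.5 UMIs per 10000, with the highest spot of group 5 at 16.9 and the lowest of group 9 at 26.6. In Tumor-899 they had 13.3 to 23.7, with the highest spot of group 5 at 13.3 and the lowest of group 9 at 23.8. Levels are given as CPM, UMI counts scaled to the total of the sum as adjusted by TMM, the edgeR normalization, unless stated otherwise. Summed over the 8 genes, the level was 682, 2133 and 4110 CPM in the low, moderate and high zones of Tumor-897. In Tumor-899 it was 479, 1740 and 3618 CPM. The moderate zone had thus covered 42.3% and 40.2% of the rise from low to high in CPM, and 63.5% and 63.8% of it on the log2 scale. A gene that follows H exactly would therefore have a larger log2 step from low to moderate than from moderate to high.

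The label's markers followed the zones in both tumors. Levels and shares of the 8 single genes are scaled to the plain total of UMIs in the zone, without TMM. They therefore do not add up to the sums above, and their shares are on another scale than that of H. NDRG1, a stress-induced gene and common hypoxia marker, stood at 202, 800 and 1624 CPM in Tumor-897 and at 127, 697 and 1495.4 CPM in Tumor-899. BNIP3, a mitophagy receptor of the outer mitochondrial membrane, was at 180, 461 and 711 CPM and at 126, 409 and 706 CPM. SLC2A1, the glucose transporter GLUT1, was at 193, 423 and 663 CPM and at 178, 419 and 607 CPM. The 8 genes were not alike in how much of their rise the moderate zone held. For ADM, the vasodilator peptide adrenomedullin, it was 29.8% and 23.8%, the lowest share of the 8 in each tumor. For P4HA1, a collagen prolyl hydroxylase, it was 58.3% in Tumor-897, and for SLC2A1 it was 56.2% in Tumor-899, the highest share in each. When spots were placed by NDRG1, CA9, P4HA1 and EGLN3 alone, ADM, which then placed no spot, kept a share of 32.1% and 24.8%.

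**Figure D1:**
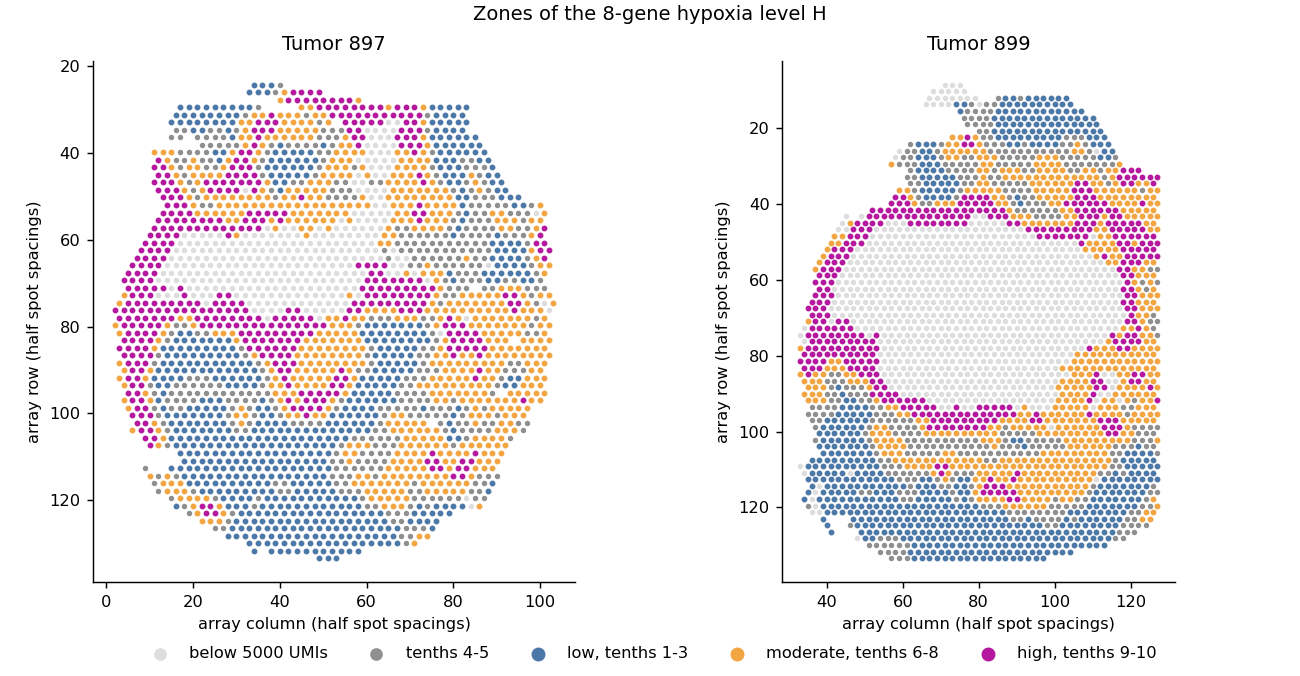
Position of every spot over tissue in the sections of Tumor-897 (left) and Tumor-899 (right), on the array grid, colored by zone. Pale spots have fewer than 5000 UMIs, grey spots are groups 4 and 5, and blue, orange and purple spots are the low, moderate and high zones. The high zone borders the pale low-UMI area, and 41.0% and 40.9% of moderate spots adjoin a high spot.

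On the map of the zones, moderate spots lay between the high zone and the rest. H was averaged over adjacent spots, which gives spots beside high ones a raised H. The layout and patch sizes given here therefore follow in part from the rule. 41.0% of moderate spots in Tumor-897 and 40.9% in Tumor-899 adjoined a high spot, while 10.4% and 1.36% adjoined a low spot. The median moderate spot was 2 spot steps from the high zone in each tumor, against 5 and 8 steps for the median low spot. The largest connected patch of moderate spots held 41.7% of them in Tumor-897 and 62.0% in Tumor-899. Depth moved with the zones. The median spot had 31431, 21202 and 18778 UMIs in the low, moderate and high zones of Tumor-897 and 19343, 22031 and 15478 in Tumor-899. Counts from spots thinned to 5000 UMIs are given beside the main ones. Of the barcode sequences, 1627 occur in both libraries, since both arrays use the same barcode set.

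UMI sums of the 6 tumor zones were fitted in edgeR with the tumor as a block, for 14345 genes without the 8 rule genes, and a gene was called at a Benjamini-Hochberg adjusted p under 0.05. The first step is the log2 ratio of moderate over low, the second that of high over moderate. The steps share the moderate sums, so errors in those sums push them in opposite directions and the 2 lists of calls are not independent. At the first step, 711 genes (4.96%) had a higher and 517 (3.60%) a lower level in the moderate zone. At the second step, 196 genes (1.37%) had a higher and 18 (0.125%) a lower level in the high zone. With spots thinned to 5000 UMIs, these counts were 403, 197, 166 and 9. DESeq2 gave 270, 74, 108 and 6, and edgeR without the tumor as a block gave 113, 12, 0 and 0. Scaling by library size in place of TMM changed the balance. It left 35.0% in place of 57.9% of first-step calls higher, and 60% in place of 91.6% of second-step calls.

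Among genes averaging at least 20 CPM, those that rose most at the first step were heat shock genes, LOX, DEPP1, the chemokine CCL26 and the glucose transporter SLC2A3. HSPA6, an inducible HSP70 chaperone (chromosome 1, 161524540 to 161526894 in GRCh38.p14), was at 8.07, 66.7 and 59.9 CPM in the low, moderate and high zones of Tumor-897 and at 5.30, 70.7 and 143.8 CPM in Tumor-899. The low sums lay below all others, and only in Tumor-899 was the high zone above the moderate zone. Its first step was 9.51-fold (log2 3.25 ± 0.28 SE, n = 2, edgeR adjusted p = 3.01e-05), and its second step had a log2 of 0.48 ± 0.23 SE and was not called (edgeR adjusted p = 0.393). HSPA1A, another inducible HSP70 (chromosome 6, 31815543 to 31817942), was at 40.7, 144.3 and 135.8 CPM in Tumor-897 and at 36.8, 207.8 and 274.5 CPM in Tumor-899. Moderate and high sums lay far above the low ones in both tumors, and the moderate-to-high change went opposite ways. HSPA1A was 4.32-fold higher at the first step (log2 2.11 ± 0.18 SE, n = 2, edgeR adjusted p = 2.11e-05), and its second step of 0.18 ± 0.17 SE was not called (edgeR adjusted p = 0.711). HSPA1A and HSPA1B are nearly identical in sequence, so reads may be split between them and each value is uncertain.

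CCL26, the chemokine eotaxin-3 (chromosome 7, 75769524 to 75791597), stood at 12.9, 44.3 and 41.6 CPM in Tumor-897 and at 10.0, 60.4 and 77.5 CPM in Tumor-899. Its first step was 4.28-fold (log2 2.10 ± 0.19 SE, n = 2, edgeR adjusted p = 3.29e-05), and its second step of 0.15 ± 0.17 SE was not called (edgeR adjusted p = 0.771). SLC2A3, the high-affinity glucose transporter GLUT3 (chromosome 12, 7919230 to 7936187), climbed through all zones, from 42.5 to 138.1 and 229.8 CPM in Tumor-897 and from 27.6 to 122.1 and 216.9 CPM in Tumor-899. Both steps were called, with a first step of 3.69-fold (log2 1.88 ± 0.10 SE, n = 2, edgeR adjusted p = 2.48e-06) and a second of 1.72-fold (log2 0.78 ± 0.10 SE, edgeR adjusted p = 0.00135).

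LOX, the lysyl oxidase that crosslinks collagen (chromosome 5, 122063195 to 122078259), was at 32.9, 133.2 and 276.9 CPM in Tumor-897 and at 15.4, 79.7 and 214.5 CPM in Tumor-899. Its zones did not overlap between or within tumors. LOX was 4.38-fold higher at the first step (log2 2.13 ± 0.12 SE, n = 2, edgeR adjusted p = 2.48e-06) and 2.36-fold higher at the second (log2 1.24 ± 0.11 SE, edgeR adjusted p = 2.27e-04). DEPP1, a FOXO-induced regulator of autophagy (chromosome 10, 44976128 to 44978809), had the largest second step of the genes with like signs at both steps. It rose by log2 2.37 ± 0.14 SE and then by 1.41 ± 0.11 SE (n = 2, edgeR adjusted p = 2.48e-06 and 1.46e-04). The other first-step rises among the 12 largest were HSPA1B, ALDOC, SPAG4, MT1X, ANGPTL4 and MXI1, with log2 1.39 to 1.80.

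At the second step the largest rises included MT1M, DEPP1, SAA1, LOX and VEGFA. MT1M, a zinc-binding metallothionein, had the largest called second step at that level (log2 1.93 ± 0.36 SE, n = 2, edgeR adjusted p = 0.0205), but its first step was 1.58 in Tumor-897 and -0.89 in Tumor-899. SAA1, an acute phase protein (chromosome 11, 18266264 to 18269967), was at 10.7, 16.8 and 33.9 CPM in Tumor-897 and at 15.5, 26.5 and 74.4 CPM in Tumor-899. It was 1.62-fold higher at the first step and 2.42-fold at the second (log2 0.70 ± 0.14 SE and 1.28 ± 0.13 SE, n = 2, edgeR adjusted p = 0.00878 and 3.37e-04). VEGFA, the main angiogenic growth factor, stood at 37.8, 91.7 and 170.9 CPM in Tumor-897 and at 30.1, 65.9 and 148.8 CPM in Tumor-899. Its steps were near in size, log2 1.21 ± 0.08 SE and 1.03 ± 0.08 SE (n = 2, edgeR adjusted p = 3.97e-06 and 7.79e-05). The other large second steps were those of RASSF4, DDIT4 (an inhibitor of mTORC1), ANGPTL4, HILPDA (a lipid droplet protein), C15orf48, ARRDC3 and MT1X, with log2 0.94 to 1.15.

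At the second step 18 genes were lower. MX1 and OAS2, antiviral genes induced by interferon, were lower at both steps, with a second step of log2 -0.81 ± 0.18 SE for MX1 and -0.65 ± 0.13 SE for OAS2 (n = 2, edgeR adjusted p = 0.0496 and 0.0283). THBS1, the angiogenesis inhibitor thrombospondin-1, was at 268.0, 228.8 and 174.4 CPM in Tumor-897 and at 265.6, 243.8 and 166.7 CPM in Tumor-899. It was 1.38-fold lower at the second step (log2 -0.47 ± 0.07 SE, n = 2, edgeR adjusted p = 0.00336), while its first step of -0.18 ± 0.06 SE was not called (edgeR adjusted p = 0.109). SAMHD1, LRR1, IFI27, the basement membrane collagen COL4A1 and TTPAL made up the other large second-step falls, with log2 -0.61 to -0.40.

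At the first step, the largest falls among those genes with the same direction in both tumors were CDH11, ACTA2, CTSS, ASF1B, MANCR, SPC24, PSMC3IP and CENPM. ACTA1, skeletal muscle actin, had a larger fitted fall that came from Tumor-899 alone, at 157.4, 1.56 and 1.37 CPM there and 1.87, 2.45 and 1.71 CPM in Tumor-897. CDH11, a mesenchymal cadherin, was at 47.2 and 27.5 CPM in the low and moderate zones of Tumor-897 and at 59.5 and 19.5 CPM in Tumor-899, 2.25-fold lower (log2 -1.17 ± 0.16 SE, n = 2, edgeR adjusted p = 0.00126). ASF1B (a histone chaperone of replication), SPC24 and CENPM (kinetochore proteins) belong to dividing cells and PSMC3IP to recombination, whereas ACTA2 is smooth muscle actin and CTSS a lysosomal protease of macrophages.

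Fibroblast and skeletal muscle markers were highest in the low zone of Tumor-899. The marker sums given here are scaled to the plain total of UMIs in the zone, without TMM. The 14 fibroblast markers summed to 1831 CPM in its low zone, 743 in the moderate and 913 in the high zone, against 1097, 1108 and 1394 CPM in Tumor-897. The 10 skeletal muscle markers summed to 600 CPM in the low zone of Tumor-899 and to 27.6 and 22.01 CPM in its other zones, against 13.9 to 15.03 CPM in Tumor-897. Macrophage and granulocyte markers lay between 230.5 and 310.4 CPM in all 6 sums, with S100A8 at 0 in 5 of them. Of the tested markers, 4 of 12 for fibroblasts, 4 of 9 for macrophages and granulocytes and 2 of 3 for muscle were lower at the first step, and 1 macrophage or granulocyte marker was higher at each step. ACTA2 is itself on the fibroblast list. Endothelial markers lay at 123.4 to 133.5 CPM in all sums, with none called among 6, and CLDN5, which defines endothelium, was at 0 in 5 sums. The 4 red blood cell markers summed to 47.3, 92.0 and 72.1 CPM in Tumor-897 and to 50.1, 40.3 and 22.7 CPM in Tumor-899, opposite ways at the first step, with none of 3 called. The 5 adipocyte markers summed to 9.26 to 12.9 CPM and the 6 of skin epithelium to 472 to 521 CPM, with none of 3 and 2 of 4 (PERP higher and SFN lower, both at the first step) called. With the spots richest in these markers left out, the step counts were 1075 and 910 at the first step and 444 and 74 at the second, more than with all spots.

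HIF targets outside the rule rose at both steps. Of 34 tested, 32 were higher at the first step and 28 at the second, with none lower, and their median was log2 1.11 and then 0.63, against 0.00 and 0.01 over all genes. JMJD6, a lysyl hydroxylase, was the only one of the 34 called at the second step and not the first (log2 0.17 ± 0.07 SE, edgeR adjusted p = 0.191, then 0.48 ± 0.08 SE, edgeR adjusted p = 0.00821, n = 2). PPP1R3C, which directs glycogen synthesis, had a first step of log2 1.47 ± 0.21 SE (n = 2, edgeR adjusted p = 0.00143) and a second of 0.08 ± 0.21 SE that was not called (edgeR adjusted p = 0.910). For the oxygen sensors, 4 of 10 were higher and 2 lower at the first step. HIF1A itself stood at 175.4, 146.5 and 118.6 CPM in Tumor-897 and at 186.8, 144.8 and 113.7 CPM in Tumor-899. It fell at both steps (log2 -0.31 ± 0.06 SE and -0.32 ± 0.07 SE, n = 2, edgeR adjusted p = 0.0107 and 0.0349). EPAS1, the HIF2 alpha subunit, and EGLN1, the main HIF prolyl hydroxylase, rose at the first step (log2 0.45 and 0.33), and EGLN2 fell (log2 -0.45).

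Glycolysis behaved alike, with smaller steps. Its list shares SLC2A3, HK2, PFKFB3, PFKFB4 and PDK1 with the HIF targets, so the likeness is in part built in. Of 24 tested genes, 22 were higher at the first step and 17 at the second (medians log2 0.45 and 0.38). HK2, the first enzyme of glycolysis, rose by log2 1.32 ± 0.08 SE and 0.67 ± 0.08 SE (n = 2, edgeR adjusted p = 2.48e-06 and 7.44e-04), and LDHA, which makes lactate, by 0.53 ± 0.06 SE and 0.37 ± 0.06 SE (edgeR adjusted p = 2.49e-04 and 0.00821). GAPDH and ENO1 had first steps of 0.29 and 0.31 and second steps of 0.38 each. Of 11 genes of mitophagy and mitochondrial restriction, 5 rose at the first step and 4 at the second, among them BNIP3L and FAM162A. This list shares BNIP3L, FAM162A, PDK1 and MXI1 with the HIF targets above. None of 29 nuclear genes of oxidative phosphorylation was called at either step (medians -0.05 and -0.04), and of the 13 mitochondrial genes 2, MT-ATP8 and MT-ND4L, were higher at the first step.

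Cell cycle genes were called at the first step alone, but S phase genes leaned down at the second as well. Of 29 genes of S phase and origin licensing, 23 were lower in the moderate than in the low zone (median log2 -0.40). At the second step none passed (median -0.20), and 0 of the 29 had a fitted step above 0. FEN1, the flap endonuclease of DNA replication, stood at 197.9, 138.3 and 116.5 CPM in Tumor-897 and at 215.0, 147.1 and 118.3 CPM in Tumor-899, with each zone apart from the next. Its first step was log2 -0.53 ± 0.06 SE (n = 2, edgeR adjusted p = 3.00e-04), and its second of -0.28 ± 0.07 SE was not called (edgeR adjusted p = 0.0634). Of 28 genes of G2 and mitosis, 17 were lower at the first step (median -0.30) and none passed at the second (median -0.04). PLK1, a mitotic kinase, was at 81.4, 65.5 and 65.8 CPM in Tumor-897 and at 86.3, 63.0 and 64.1 CPM in Tumor-899, so that moderate and high sums overlapped and both lay below the low ones. Whether the steps differ was tested for each gene below, and no cell cycle gene passed.

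Heat shock genes had the largest median difference of the steps (log2 0.42) of the 20 lists. Of 13 tested, 7 were higher and 1 lower at the first step, and none was called at the second, with medians of log2 0.39 and -0.01. Besides the HSP70 genes, DNAJB1, their co-chaperone (log2 1.38 ± 0.11 SE), the small heat shock protein HSPB1 (1.02 ± 0.14 SE), HSPH1 (0.65 ± 0.12 SE) and HSP90AA1 (0.39 ± 0.08 SE) rose. HSPA8, the constitutive HSP70, was the member that fell (log2 -0.35 ± 0.07 SE, n = 2, edgeR adjusted p = 0.0082). The medians differed between tumors: 0.27 and 0.52 at the first step, and -0.08 and 0.11 at the second. In the unfolded protein and ATF4 response, 11 of 26 genes rose at the first step and 3 at the second. PPP1R15A, the phosphatase subunit that restores translation, rose at both (log2 0.80 and 0.69), while ATF3 and HSPA5 (the ER chaperone BiP) were called at the first step (0.74 and 0.47) and had second steps of 0.15 each.

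**Figure D2:**
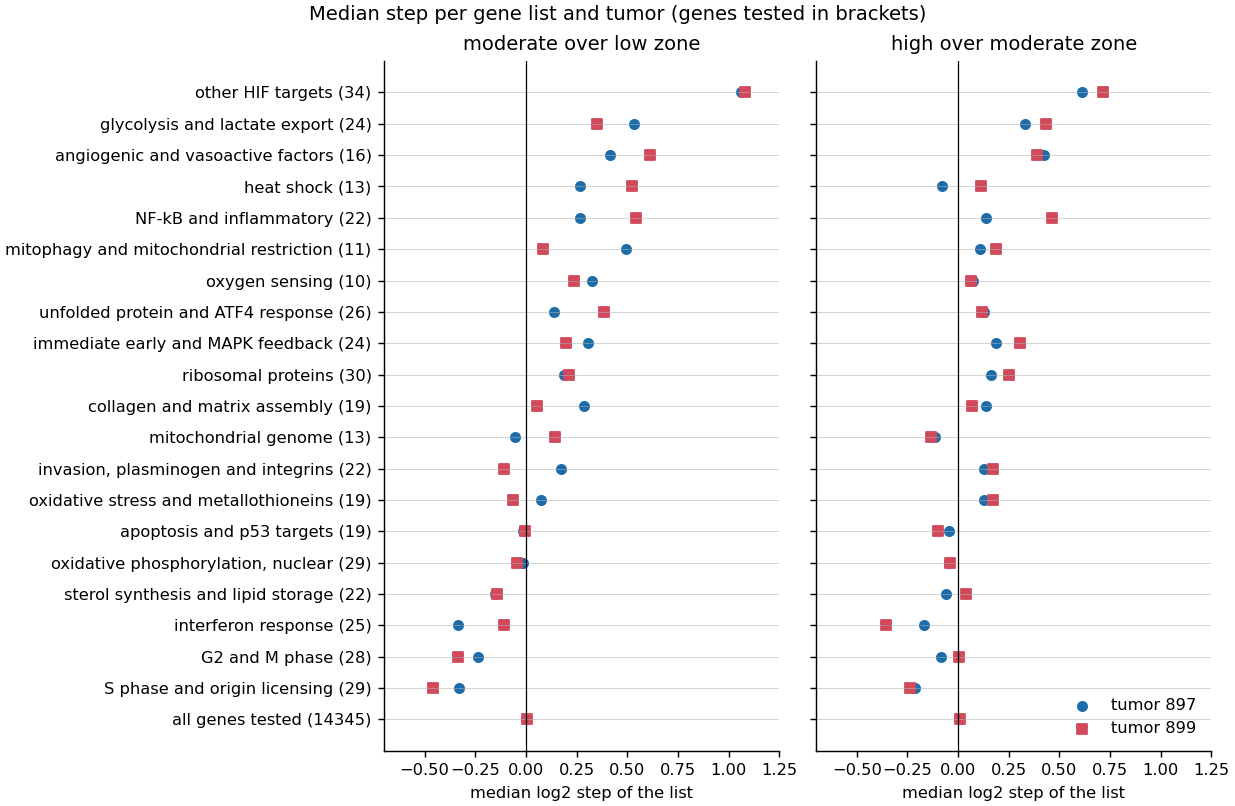
Median log2 step of each gene list per tumor, moderate over low on the left and high over moderate on the right, with the number of genes tested in brackets. Circles are Tumor-897 and squares Tumor-899, and the lowest line gives all genes tested. HIF targets have the largest medians on both sides (1.06 and 1.08 at the first step, 0.61 and 0.72 at the second), while the heat shock list is above 0 on the left and at -0.08 and 0.11 on the right.

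Growth factor and inflammatory signals had calls at both steps. Of 24 immediate early and MAPK feedback genes, 10 were higher at the first step and 6 at the second. FOS, JUNB, JUND, EGR1, ATF3, JUN and DUSP1 were called at the first step alone. FOSL1, an AP-1 subunit, SPRY4, a feedback inhibitor of receptor tyrosine kinases, and DUSP6, the ERK phosphatase, were called at the second alone. FOSL2, DUSP5 and KLF6 were called at both. FOSL1 (chromosome 11, 65892049 to 65900545) was at 180.4, 186.6 and 229.6 CPM in Tumor-897 and at 191.6, 183.0 and 224.1 CPM in Tumor-899. Its low and moderate sums overlapped and its high sums stood above them (second step 1.23-fold, log2 0.30 ± 0.06 SE, n = 2, edgeR adjusted p = 0.0428). SPRY4 (chromosome 5, 142310430 to 142325021) was at 32.8, 34.1 and 47.3 CPM in Tumor-897 and at 41.9, 39.4 and 53.3 CPM in Tumor-899, a second step of 1.37-fold (log2 0.46 ± 0.08 SE, n = 2, edgeR adjusted p = 0.0187).

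Of 22 NF-kB and inflammatory genes, 5 were higher at each step. PTGS2, the inducible cyclooxygenase, rose from 2.96 to 11.2 and 22.4 CPM in Tumor-897 and from 2.65 to 12.2 and 22.6 CPM in Tumor-899 (log2 2.03 ± 0.16 SE and 0.95 ± 0.13 SE, n = 2, edgeR adjusted p = 1.38e-05 and 0.00336). CSF2, the growth factor GM-CSF, was at 8.30, 11.3 and 20.7 CPM and at 9.11, 11.03 and 26.7 CPM, with its call at the second step (log2 1.07 ± 0.14 SE, n = 2, edgeR adjusted p = 0.00176) and a first step of 0.36 ± 0.14 SE (edgeR adjusted p = 0.132). NFKBIA and BIRC3, feedback targets of NF-kB, were also called at the second step. Interferon genes went the other way: of 25, 8 were lower and 2 higher at the first step, and 5 were lower at the second (medians log2 -0.23 and -0.26). The first-step falls were unlike in size between tumors: MX1 was -0.91 in Tumor-897 and -0.16 in Tumor-899.

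The remaining lists had mixed calls. Among 19 genes of oxidative stress and metallothioneins, 6 were higher and 3 lower at the first step, and 6 were higher at the second. HMOX1 (heme oxygenase), the ferritin chains FTL and FTH1, MT2A and MT1X rose at both steps, whereas the NRF2 targets NQO1 and GCLM and the peroxiredoxin PRDX1 fell at the first. Of 22 genes of sterol synthesis and lipid storage, the synthesis genes FASN, FDPS and LSS fell at the first step (log2 -0.34 to -0.29), and PLIN2 and HILPDA, proteins of lipid droplets, rose at both. Of 19 collagen and matrix genes, 6 rose and 1 fell at the first step. The enzymes LOX, LOXL2, PLOD1, PLOD2 and P4HA2 rose at both, and SERPINH1, the collagen chaperone, had a first step of log2 0.64 ± 0.08 SE (n = 2, edgeR adjusted p = 5.87e-04) and a second of -0.07 ± 0.08 SE that was not called (edgeR adjusted p = 0.799). Of 16 angiogenic factors, 7 rose at the first step and 5 at the second, with THBS1 lower there. Of 22 invasion genes, 5 rose and 2 (MMP14 and PLAU, both proteases) fell at the first step, and 4 rose at the second. Ribosomal protein genes were higher in 14 of 30 at the first step and 3 at the second (medians 0.21 and 0.20), and their medians kept the sign under library-size scaling. Of 19 apoptosis and p53 targets, 2 (CASP4 and GDF15) were higher at the first step.

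The test of early against late genes compares the steps within each gene, as the first step minus the second. This difference is above 0 for a rising gene that has more of its log2 change by the moderate zone. For a falling gene of that kind it is below 0. No gene was called (0 of 14345, edgeR, smallest adjusted p = 0.102). At an unadjusted p under 0.05, 417 genes (2.91%) were above 0 and 360 (2.51%) below. These counts mix rising and falling genes and do not count early against late ones. DESeq2 called 1 gene, SLC2A3 (DESeq2 adjusted p = 0.0141). That 0 depended on the setting: edgeR called 13 genes as early-rising (first step and difference both called, above 0 in both tumors, with a share of the rise above that of H) after thinning to 5000 UMIs, 13 with spots of at least 2000 UMIs, 16 without spots rich in markers of other cells and 51 without the filter on low counts. In those fits, in that order, the prior degrees of freedom were 23.0, 13.8, 18.1 and unbounded, against 10.1 in the main fit. They set how far the estimate of spread is shared across genes. Where they were unbounded no gene kept a spread of its own, so the 51 calls are not on equal terms with the main fit. The lowest adjusted p of the main fit belonged to HSPA1A, CCL26, SLC2A3 and HSPA6. With the steps weighted so that a gene that follows H scores 0, the smallest edgeR adjusted p was 0.975. On that scale LOX lay at -0.03, next to the course of H. So a called first step beside an uncalled second step, as printed above, does not show that the steps differ.

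As a description, genes of at least 20 CPM were ordered by the difference of the steps. A gene leaned early where it was called higher at the first step, its difference was above 0 in both tumors, and its share of the rise by the moderate zone exceeded that of H. It leaned late where it was called higher at the second step and both were below. By this rule 360 genes leaned early and 30 late, among 6705 genes of at least 20 CPM. Leaning early drew on 711 first-step calls and leaning late on 196 second-step calls, so the 2 counts are not on equal terms. The log2 rise of H was also larger at the first step, 1.64 and 1.86 in Tumor-897 and Tumor-899, against 0.95 and 1.06. The share of H comes from the genes that placed the spots, while the genes set against it placed none. Most rule genes had a larger share when they placed no spot, but SLC2A1 in Tumor-897 and P4HA1 in Tumor-899 had a smaller one. The share of H is thus a low mark that favours leaning early. The 14 that leaned earliest, by the smaller difference of the 2 tumors, were HSPA6, HSPA1A, CCL26, HSPA1B, SLC2A3, C5orf46, DNAJB1, ZFAND2A, MTRNR2L8, HSPB1, ALDOC, PLOD2, UCA1 and TXNIP. The difference was 3.18 and 2.68 for HSPA6, 1.91 and 2.09 for HSPA1A, 1.86 and 2.21 for CCL26 and 0.96 and 1.31 for SLC2A3 in Tumor-897 and Tumor-899. HSPA6, HSPA1A, HSPA1B, DNAJB1 and HSPB1 are on the heat shock list, and ZFAND2A is an arsenite- and heat-inducible partner of the proteasome. MTRNR2L8 resembles the mitochondrial 16S rRNA gene, so its reads are uncertain.

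TXNIP, an inhibitor of thioredoxin and of glucose uptake (chromosome 1, 145992435 to 145996579), had its highest zone level in the moderate zone. It stood at 139.1, 182.6 and 154.4 CPM in Tumor-897 and at 114.7, 203.5 and 156.7 CPM in Tumor-899, above both neighbours in each tumor. By single groups, TXNIP had no clear peak within the moderate zone of Tumor-897. There it was at 189.3 CPM in group 4, 184.8 in group 5 and 190.7 in group 7. In Tumor-899 it was highest in group 7, at 221.2 CPM. Its first step was 1.52-fold (log2 0.60 ± 0.09 SE, n = 2, edgeR adjusted p = 0.0016), and its second step of -0.31 ± 0.09 SE was not called (edgeR adjusted p = 0.135). Over all genes, none was called highest or lowest in the moderate zone at both steps in edgeR, and 24 and 15 were at an unadjusted p under 0.05.

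The 14 that leaned latest were C1orf21, SPRY4, SAA1, FMNL1, BZW1, FOSL1, JMJD6, G0S2, SOX9, MT1M, ANKRD12, BIRC3, CSGALNACT2 and ING2. The fitted difference turned above 0 for SAA1 (0.56) and ING2 (0.040) when H was taken from the spot alone, and for SAA1 (0.084) with H from BNIP3, SLC2A1, ADM and ANKRD37. G0S2, an inhibitor of the lipase ATGL, stood at 123.2, 145.0 and 201.4 CPM in Tumor-897 and at 125.3, 113.1 and 192.2 CPM in Tumor-899. Its low and moderate sums overlapped, and its second step was 1.53-fold (log2 0.61 ± 0.08 SE, n = 2, edgeR adjusted p = 0.00312). The difference of the steps ran from -0.52 to -0.16 over the set in Tumor-897 and from -3.02 (MT1M) to -0.16 in Tumor-899, with -0.52 and -0.63 for C1orf21, -0.42 and -0.53 for SPRY4 and -0.25 and -0.36 for FOSL1.

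**Figure D3:**
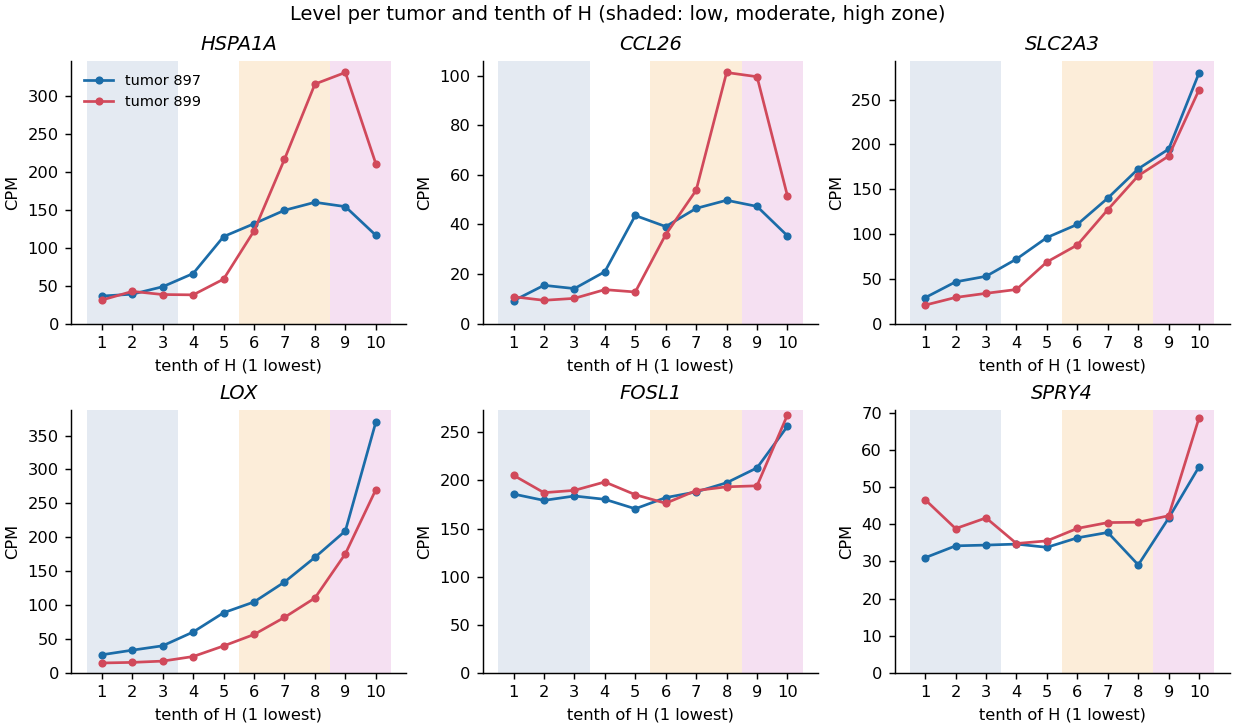
Level in CPM of HSPA1A, CCL26, SLC2A3, LOX, FOSL1 and SPRY4 (vertical axes, starting at 0) in each of the 10 groups by H (horizontal axes, 1 lowest), with Tumor-897 in blue and Tumor-899 in red. Each point is 1 sum over the spots of a group, and the shading marks the low, moderate and high zones. HSPA1A and CCL26 are lower in group 10 than in group 8 in both tumors, and FOSL1 and SPRY4 are highest in group 10.

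The single groups by H showed where each course turned. HSPA1A was at 36.3 CPM in group 1, 159.6 in group 8 and 116.2 in group 10 of Tumor-897, and at 31.0, 315.1 and 210.4 CPM in Tumor-899, so that it was lower in group 10 than in group 8 in both. CCL26 did likewise, with 9.22, 49.7 and 35.4 CPM and 10.8, 101.2 and 51.4 CPM. LOX continued up, from 170.3 CPM in group 8 to 369.8 in group 10 in Tumor-897 and from 110.3 to 270.2 CPM in Tumor-899. SPRY4 moved from 29.1 CPM in group 8 to 55.6 in group 10, and from 40.6 to 68.8 CPM. G0S2 was at 157.0 and 245.1 CPM in groups 8 and 10 of Tumor-897 and at 119.4 and 276.1 CPM in Tumor-899. The summed rule genes first passed the midpoint of their range in group 8 in both tumors. The 14 early-leaning genes passed theirs at a median group of 5 in Tumor-897 and 7 in Tumor-899, and the 14 late-leaning ones at a median group of 9 in both, as the choice of genes favours.

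**Figure D4:**
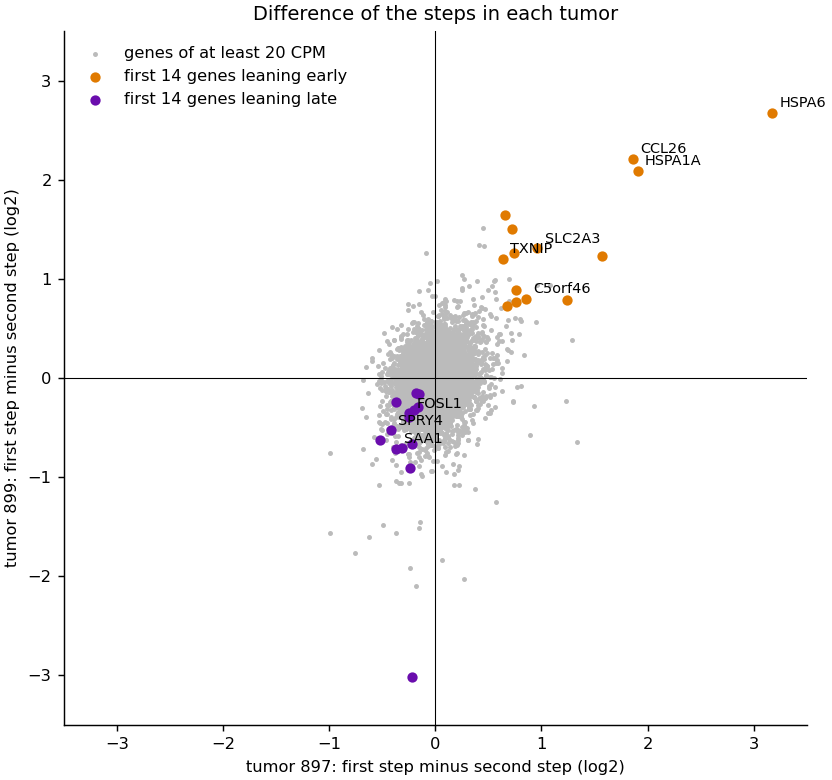
Difference of the steps (first minus second log2 step) in Tumor-897 (horizontal axis) and Tumor-899 (vertical axis) for genes of at least 20 CPM in grey, with the 14 genes leaning earliest in orange and the 14 leaning latest in purple. 1 gene lies outside the axes. HSPA6, CCL26 and HSPA1A stand apart at upper right, while the late genes lie close to the grey cloud apart from MT1M at -0.22 and -3.02.

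The order of genes was only in part alike between the tumors. Across 6705 genes of at least 20 CPM, the difference of the steps in Tumor-897 and in Tumor-899 had a Pearson r of 0.289, a description across genes, which are not independent replicates and share the depth of their zone sums. To read it in a tumor that did not choose the genes, the 50 genes with the largest difference among those with a log2 rise of at least 0.5 from low to high in Tumor-897 were looked up in Tumor-899. There 41 of the 50 were above 0 (median 0.49), against 56.3% of the 446 genes they were chosen from. The 50 with the largest difference in Tumor-899 were above 0 in 45 cases in Tumor-897 (median 0.44), against 77.4% of 563. For the late end, 31 of the 50 smallest in Tumor-897 were below 0 in Tumor-899 (median -0.13), where 56.3% of the 446 were above 0. Of the 50 smallest in Tumor-899, 18 were below 0 in Tumor-897 (median 0.072), where 77.4% of the 563 were above 0.

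Promoters were searched for 3 motifs, and the shares are given with no test. A HIF core (ACGTG or GCGTG, both strands) stood in 63.1% of the 531 matched promoters of genes higher at the first step, 64.8% of 159 at the second, 66.0% of 409 of genes lower at the first step, 64.0% of 289 early-leaning and 68.2% of 22 late-leaning genes, against 62.9% of all. The heat shock pair GAANNTTC stood in 7.96% of early-leaning promoters, 4.55% of late-leaning ones and 4.75% of all. At the first step it stood in 6.97% of promoters of higher genes and 6.36% of those of lower genes, and at the second in 6.92% of those of higher genes. The AP-1 letters TGANTCA stood in 7.96% of early-leaning promoters and 4.86% of all, and in 0 of 22 late-leaning ones, too few to read. They stood in 7.72% of promoters of genes higher at the first step, 3.42% of those lower there and 6.29% of those higher at the second.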

How the data were processed

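Counts were deposited as UMIs per gene and spot with spot positions, made with Space Ranger (version 1.3.0 per the file headers) and on hg38 per the submitters' processing notes. Each tumor had 36601 features, with 58661164 and 39736292 UMIs in 2536 and 2846 spots. Spots of a section are not replicates, so UMIs were summed per tumor and zone (6 sums). These sums were fitted in edgeR 4.0.16 (R 4.3.3) with TMM, filterByExpr, the tumor as a block and the quasi-likelihood test, with 2 residual and 10.1 prior degrees of freedom. The tumor is a block because its 3 zones come from the same section. The fit was tested on simulated data. A prior count of 2 entered log2 values per tumor, and CPM are scaled to the UMIs of the zone. Gene positions and promoters came from RefSeq (GRCh38.p14). Of 85 named genes, 82 were matched there by Ensembl identifier, or by symbol where no identifier matched.

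Rule, zones and the 20 gene lists were chosen with earlier results of these data known. The naming rule was the 14 early-rising and 14 late-rising genes by the difference of the steps, 6 falling each way, 6 highest and 6 lowest in the moderate zone, and 2 members per list. As the test left those classes empty, the leaning rule, the largest rises and falls per step (12 and 8) and the list members named were chosen after values were seen. List members not tested for low counts were NRN1, HIF3A, SLC16A1, COX4I2, CSF3, MT1G, FABP3, P4HA3 and MMP7. Alternatives covered scaling, DESeq2 1.42.0, filters, depth, H, zones and other cells. Python 3.11.15 was used for spots and figures. Some list members that were called are not reported here by name.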

Additional observations from a re-analysis of the deposited data

How the results depend on the processing

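Counts are given as first step higher and lower, then second step higher and lower, against 711, 517, 196 and 18. Library-size scaling gave 988, 90 and 60 for the last 3, DESeq2 gave 270, 74, 108 and 6, and the fit with no replicate block, that is without the tumor, gave 113, 12, 0 and 0. Without the filter on low counts the last 3 were 930, 387 and 140. The prior degrees of freedom of that fit were unbounded, against 10.1 in the main fit. No gene kept a spread of its own there, which holds for every count without the filter given below. Thinning to 5000 UMIs gave 403, 197 and, for the last, 9. H of the spot alone gave 351 and 62 at the second step, H from BNIP3, SLC2A1, ADM and ANKRD37 gave 45 lower there, and moderate spots not adjoining the high zone 11. Narrow zones of groups 1 to 2, 6 to 7 and 10 gave 686 and 240 at the second step, a moderate zone of groups 5 to 7 gave 313, 156, 474 and 126, and leaving out spots rich in other cells 1075, 910, 444 and 74. Early-rising genes, 0 in the main fit, numbered 1 with DESeq2, 51 without the filter, 13 at 2000 UMIs and 13 after thinning, 2 with H of the spot alone, 2 with H from BNIP3, SLC2A1, ADM and ANKRD37, 10 with H from the other 4 rule genes, 6 with the narrow zones, 16 without spots rich in other cells and 5 for spots with all 6 adjacent spots kept, an alternative chosen after the data were seen. HSPA6, SLC2A3 and TXNIP were called in 8 of the 18 alternatives each. Late-rising genes numbered 2 without the filter and 2 with the narrow zones, and early-falling ones 13, 1 and, with H from the other 4 rule genes, 2. Genes highest in the moderate zone numbered 4 without the filter, 2 with the narrow zones, 1 with H from BNIP3, SLC2A1, ADM and ANKRD37 and 2 without spots rich in other cells. Genes lowest there numbered 4 without the filter, 4 with the narrow zones, 1 after thinning and 1 with the other 4. The cause of these moves was not tested, beyond the smaller sums after thinning.

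The difference of the steps changed sign for SAA1 (0.56 with H of the spot alone, 0.084 with H from BNIP3, SLC2A1, ADM and ANKRD37), ING2 (0.040) and ASNS (-0.13) with H of the spot alone, and BBC3 (-0.13) after thinning. Weighted by H it was -0.023 for MXI1, -0.10 for MT1X, -0.071 for PLIN2 and -0.025 for LOX. With a moderate zone of groups 5 to 7 it was -0.051 for MXI1, -0.0031 for ATF3, -0.023 for MT1X and -0.20 for PLIN2, and with the narrow zones 0.28 for OAS3 and -0.035 for PLIN2. With 1 tumor left out no test remains, and the other tumor's values are those printed per tumor. The fit of the 6 sums rests on 2 tumors and 2 residual degrees of freedom.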

Other observations

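Genes with a higher level in the moderate zone than on both sides, other than TXNIP, were looked at after their values were seen. GDF15, a stress cytokine of the p53 and ATF4 pathways, stood at 9.48, 12.8 and 9.54 CPM in the low, moderate and high zones of Tumor-897 and at 5.55, 15.4 and 11.1 CPM in Tumor-899. By single groups, GDF15 had no clear peak in the moderate zone of Tumor-897. There it was at 12.8 CPM in group 3, 17.6 in group 5 and 9.96 in group 7. In Tumor-899 it was highest in group 8, at 19.0 CPM. Its first step was called (log2 0.85 ± 0.20 SE, n = 2, edgeR adjusted p = 0.0233), and its second step of -0.46 ± 0.23 SE was not (edgeR adjusted p = 0.412). SREBF1, the sterol and fatty acid regulator, had a called first step of log2 0.30 ± 0.07 SE (n = 2, edgeR adjusted p = 0.0261) and a second of -0.18 ± 0.08 SE that was not called (edgeR adjusted p = 0.365).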
